A study of Mus musculus with 16 samples.

Results

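Oligodendrocytes are the cells that wrap axons in myelin, and the 35 genes described here mark the steps by which these cells form and the membrane that they make. The genes were listed by name as markers of this lineage, with earlier results of these data known. A gene was kept where 4 or more of the 16 libraries held 10 or more of its counts. All 35 met that rule, among 19363 genes that met it of 55450 in the table. By stage, there were 2 precursor genes, 3 transcription factors of the whole lineage, 5 genes of committed cells and 25 genes of mature, myelinating cells. All are annotated as protein coding, and reads were counted over whole genes, so splice forms are not separated.

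The libraries were made from the striatum of 16 male mice, all 14 weeks old and of the C57Bl/6 background, with 1 mouse per library. R6/1 mice carry exon 1 of the human HTT gene with an expanded CAG repeat, a transgene under the human HTT promoter that models Huntington disease, and the wild-type (wt) mice were their littermates. From each genotype, the study took the 4 mice with the best and the 4 with the worst combined scores of rotarod, feet clasping and body weight, which gave the groups wt good, wt poor, R6/1 good and R6/1 poor. R6/1 is 1 transgenic line, its transgene is present in glia as well as in neurons, no mouse was treated, and the cohort and litter of each mouse were not used here.

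Oligodendrocyte precursors carry the growth factor receptor PDGFRA and the proteoglycan NG2, and they go on dividing in the adult brain. Some of them leave the cell cycle, pass through a short committed stage marked by GPR17, ENPP6 and BCAS1, and mature into cells that build compact myelin from proteins such as MBP and from lipids rich in galactose. In the rodent striatum, much of the myelin lies in the bundles of cortical fibres that cross the tissue. RNA came from whole striatum, so that fewer cells of a type and less RNA per cell cannot be told apart in any of the values below.

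Levels are given as CPM, counts per 1000000 counts of the TMM-scaled library. Total counts per library ran from 16155356 to 24897354. The libraries carry running numbers in the table, and numbers 1 to 8 had totals of 16155356 to 20250680 against 21529188 to 24897354 for numbers 9 to 16. All 4 R6/1 good mice, 1 R6/1 poor mouse, 2 wt good mice and 1 wt poor mouse are in libraries 1 to 8, so that R6/1 good has no library among numbers 9 to 16. The tissue label was checked on 12 markers of medium spiny neurons, the main neurons of the striatum, whose summed level was 5963 to 9272 CPM in wild-type mice and 1468 to 3638 CPM in R6/1 mice, with all 12 lower in R6/1 mice.

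Per kilobase of exon, Mbp, which encodes the myelin basic protein that holds the layers of compact myelin together, had the highest level of the 35 genes in wild-type mice, 642 ± 94.9 CPM per kb (mean ± SD, n = 8). Mobp, encoding another basic protein of compact myelin, followed at 293 ± 63.99, and the ranges of these neighbours did not overlap. Next in the order of levels per kilobase came Mal at 193 ± 38.9, Cnp at 184 ± 32.03 and Plekhb1 at 165 ± 16.6, which overlapped among themselves. At the other end were Enpp6 at 3.46 ± 0.588 and Cspg4 at 2.02 ± 0.271 CPM per kb, which also did not overlap. Each of the other neighbours in this order of 35 overlapped in range. Mature genes took the first 8 places, and the lineage factor of highest level was Olig1 at 44.00 ± 7.94 CPM per kb.

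**Figure D1:**
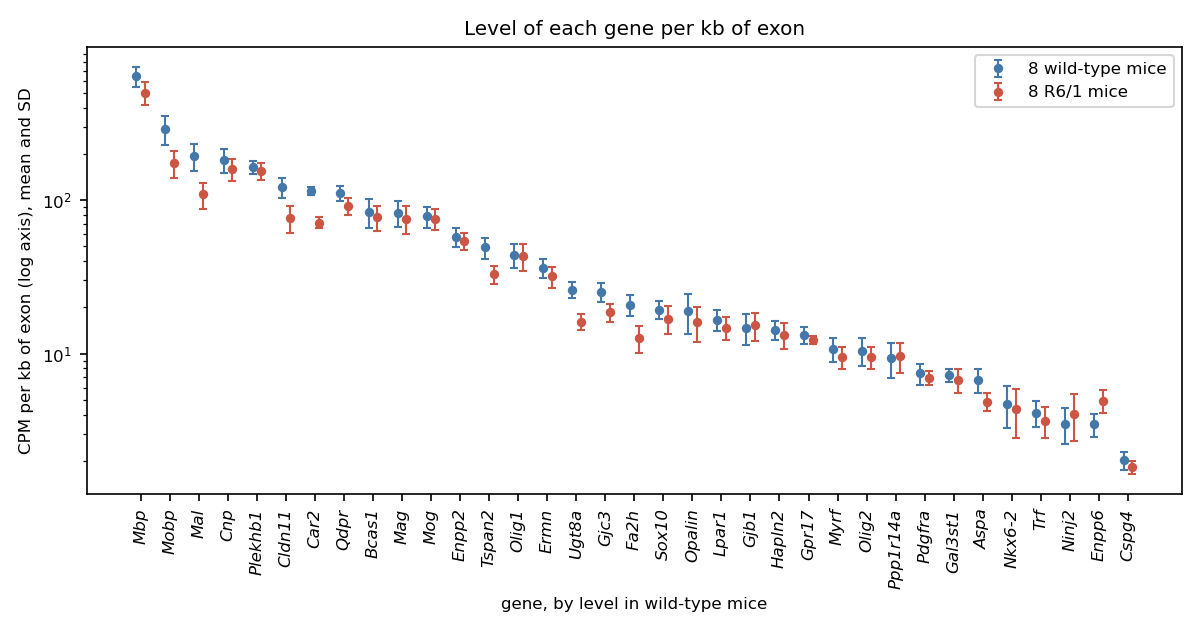
Level of each of the 35 genes in CPM per kilobase of exon on a log axis, as mean and SD of the 8 wild-type mice (blue) and of the 8 R6/1 mice (red), ordered by the wild-type level. The order runs from Mbp at 642 ± 94.9 to Cspg4 at 2.02 ± 0.271 CPM per kb in wild-type mice, and the means of Mobp, Mal, Cldn11, Car2, Tspan2, Ugt8a and Fa2h stand lower in R6/1 mice, while that of Enpp6 stands higher.

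The DNA just before the start of transcription is shown for 5 genes on which the results turn. These are Enpp6, the gene that was higher in R6/1 mice, Mobp and Ugt8a, which were lower, and Mog and Cnp, which did not pass the test. The windows are taken from RefSeq promoters on GRCm38.p6 and lie at chr8:46986637-46986886 (+ strand) for Enpp6, chr9:120149492-120149706 (+) for Mobp, chr3:125938653-125938902 (- strand) for Ugt8a, chr17:37023399-37023648 (-) for Mog and chr11:100574689-100574903 (+) for Cnp. Each is written 5′ to 3′ on the strand of its gene and ends before the annotated first exon. Capitals mark the letters of 3 kinds of motif, searched on both strands: CTGGCAC or CTGGTAC, bound by MYRF, ACAAAG or ACAATG, bound by SOX10, and CAGCTG, bound by OLIG2.
Enpp6: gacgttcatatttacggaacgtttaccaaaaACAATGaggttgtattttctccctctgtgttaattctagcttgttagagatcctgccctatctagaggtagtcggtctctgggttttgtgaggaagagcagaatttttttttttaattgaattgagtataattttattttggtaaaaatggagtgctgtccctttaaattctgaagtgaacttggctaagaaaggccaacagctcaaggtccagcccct
Mobp: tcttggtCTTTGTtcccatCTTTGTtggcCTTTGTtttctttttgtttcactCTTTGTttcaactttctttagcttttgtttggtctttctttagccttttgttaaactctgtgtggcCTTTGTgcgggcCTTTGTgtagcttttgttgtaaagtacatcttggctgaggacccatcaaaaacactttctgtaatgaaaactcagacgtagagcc
Ugt8a: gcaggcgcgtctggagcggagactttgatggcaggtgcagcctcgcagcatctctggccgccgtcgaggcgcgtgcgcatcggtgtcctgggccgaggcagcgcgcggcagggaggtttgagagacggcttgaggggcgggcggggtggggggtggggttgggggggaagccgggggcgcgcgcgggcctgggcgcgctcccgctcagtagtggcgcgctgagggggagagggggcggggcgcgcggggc
Mog: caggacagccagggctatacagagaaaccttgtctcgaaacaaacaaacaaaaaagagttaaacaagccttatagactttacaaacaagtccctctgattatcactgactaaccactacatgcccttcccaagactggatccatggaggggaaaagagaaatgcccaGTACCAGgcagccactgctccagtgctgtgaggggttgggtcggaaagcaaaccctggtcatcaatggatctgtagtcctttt
Cnp: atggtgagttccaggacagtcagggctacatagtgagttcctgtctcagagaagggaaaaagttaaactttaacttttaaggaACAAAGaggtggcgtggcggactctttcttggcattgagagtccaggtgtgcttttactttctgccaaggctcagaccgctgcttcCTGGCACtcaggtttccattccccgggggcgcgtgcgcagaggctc
The Mobp window held 6 copies of ACAAAG, all read on the opposite strand as CTTTGT, and the Enpp6 window 1 ACAATG. The Mog window held 1 CTGGTAC, read as GTACCAG, the Cnp window 1 CTGGCAC and 1 ACAAAG, and the Ugt8a window none of these letters. RefSeq windows of 300 bases, from 250 before to 50 after a start, were found for 25 of the 35 genes. The other 10 were Olig1, Sox10, Gpr17, Bcas1, Myrf, Mbp, Fa2h, Trf, Enpp2 and Car2. A MYRF motif was in the windows of 6 of the 25 genes (24%), Cnp, Hapln2, Lpar1, Mag, Mog and Opalin, against 8.1% of 27025 genes with windows of the same length. A gene counted if any of its windows held the motif, and the 25 genes had 36 windows against 32851 for the 27025 genes, so that the members had more windows per gene. A SOX10 motif was in 13 of 25 (52%) against 31.7%, and the OLIG2 motif in 4 of 25 (16%), Aspa, Hapln2, Ninj2 and Opalin, against 18.3%. These matches describe letters only.

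When all 8 R6/1 mice were set against all 8 wild-type mice, 11 of the 35 genes fell and 1 rose (edgeR, adjusted p under 0.05). The genes that fell were Tspan2 of the committed stage and 10 mature genes, Mbp, Mobp, Cldn11, Mal, Gjc3, Ugt8a, Fa2h, Aspa, Car2 and Qdpr, and the one that rose was Enpp6. Their share, 34.3%, was close to that of all genes tested, of which 34.2% were called, 17.2% higher and 17.0% lower, so the share by itself is not particular to these genes. By direction, 31 of the 35 log2 fold changes were below 0, with a median of -0.17 against 0.02 over all genes tested. The share of all genes below 0 was not counted. Levels of these genes shifted together by mouse, so the direction is a description with no test. R6/1 good mice had 1 gene higher and 9 lower than the wild-type mice, 28.6% of the 35 against 24.6% of all genes (12.1% higher and 12.4% lower), with a median of -0.16 that was -0.06 without R6/1 good mouse 1. R6/1 poor mice had 1 higher and 12 lower, 37.1% against 28.5% (13.5% higher and 14.9% lower), with a median of -0.20 that was -0.32 without R6/1 poor mouse 2. Both R6/1 groups were compared with the same 8 wild-type mice. DESeq2 called 12 of the 35 over all R6/1 mice (35.8% of all genes), 10 in the good group (26.5%) and 14 in the poor group (31.0%). In libraries 1 to 8 alone, the counts were 1 higher and 4 lower in R6/1 good mice (Enpp6 against Ugt8a, Fa2h, Car2 and Olig2) and 1 higher and 6 lower over all R6/1 mice, and in libraries 9 to 16 alone, which hold no R6/1 good mouse, 0 were higher and 13 lower. The 1 R6/1 poor mouse in libraries 1 to 8 gave 2 calls against its 3 wild-type mice, Enpp6 and Car2. With the library set as a covariate, all 12 genes called over all R6/1 mice kept their call, while the R6/1 good mice had 7 calls in place of 10. The 3 lost there were Aspa (edgeR, adjusted p = 0.173), Gjc3 (adjusted p = 0.0811) and Mobp (adjusted p = 0.0501). Shares of all genes called in the fits by library set or with that covariate are not given here. Those counts are therefore not read as particular to the 35 genes. Changes are described below by stage and by the role of each gene.

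**Figure D2:**
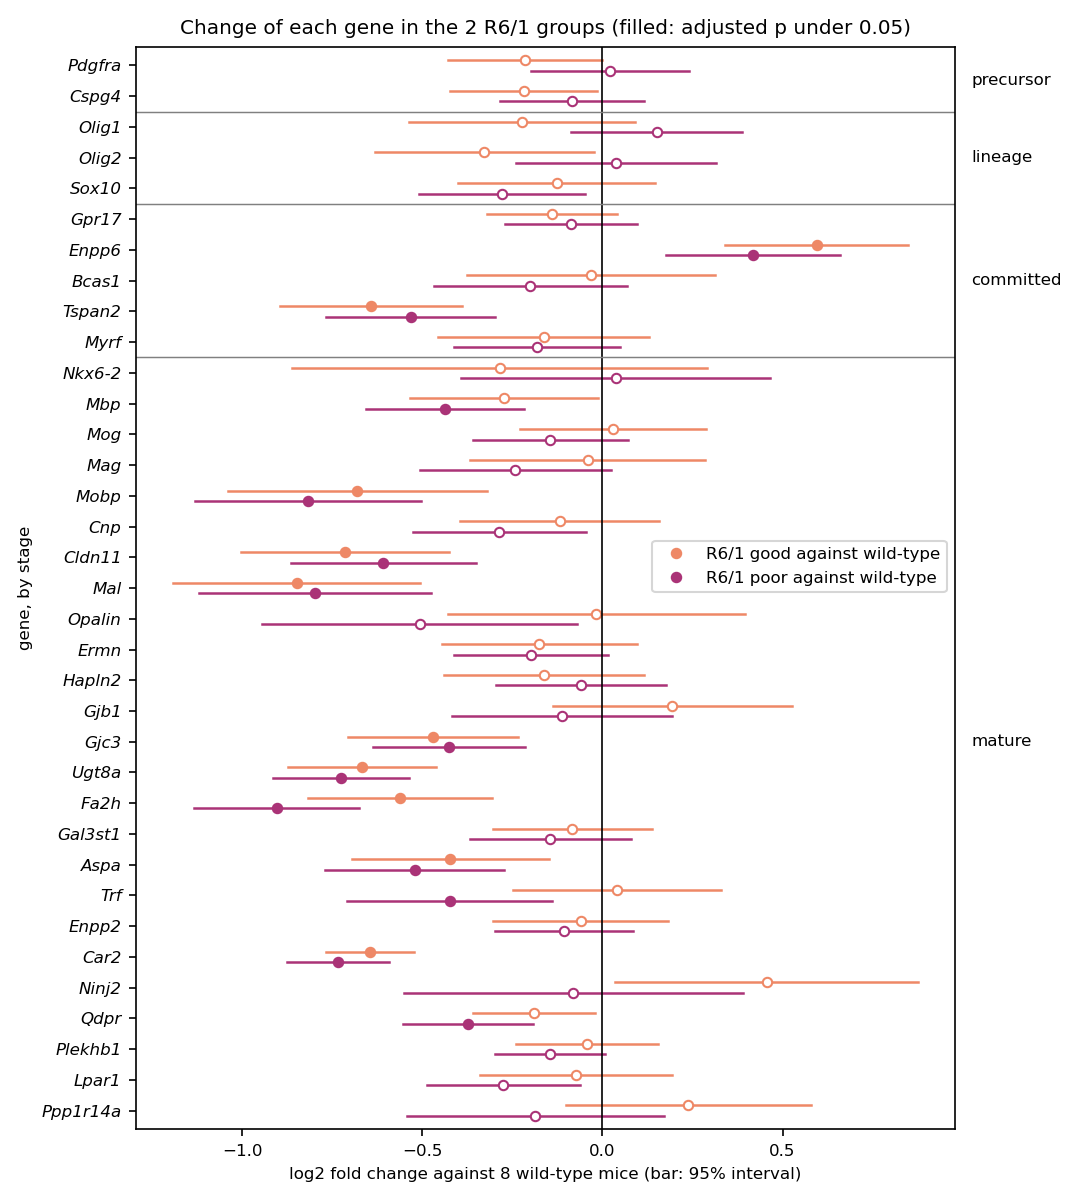
Log2 fold change of each gene in R6/1 good (orange) and R6/1 poor (purple) mice against the same 8 wild-type mice, with bars for 95% intervals and filled points for an adjusted p under 0.05 (edgeR). Enpp6 stands to the right of 0 in both groups, at 0.59 and 0.42, and the filled points of Tspan2 and of mature genes stand to the left, down to -0.90 for Fa2h in R6/1 poor mice.

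Neither precursor gene passed the test in R6/1 mice. Pdgfra, the receptor through which platelet-derived growth factor keeps precursors dividing (chr5:75152292-75198215 on GRCm38), read 64.97, 55.5, 86.9 and 68.6 CPM in wt good mice 1 to 4 and 72.7, 71.2, 85.7 and 89.4 CPM in wt poor mice 1 to 4. Its levels were 67.04, 62.9, 63.3 and 63.2 CPM in R6/1 good and 77.1, 76.6, 80.8 and 67.7 CPM in R6/1 poor mice. The R6/1 values lay within the wild-type range, and those of R6/1 good mice were all below those of R6/1 poor mice, at the nearest 67.04 against 67.7 CPM. The share of all genes in which these 2 groups did not overlap was not counted. Against wild-type mice the log2 fold changes were -0.21 (SE 0.11, adjusted p = 0.165) in R6/1 good and 0.022 (SE 0.11, adjusted p = 0.907) in R6/1 poor mice. Cspg4, the core protein of NG2, read 24.2, 18.4, 29.1 and 26.8 CPM in wt good and 22.6, 21.8, 25.2 and 24.4 CPM in wt poor mice. In R6/1 good mice it was at 18.2, 21.3, 20.6 and 22.6 CPM and in R6/1 poor mice at 21.5, 25.2, 21.4 and 22.6 CPM. All 4 groups overlapped in Cspg4, with a log2 fold change of -0.15 (SE 0.081, adjusted p = 0.168) for all R6/1 mice, called lower without wt good mouse 2 (-0.20, adjusted p = 0.0347). Without wt good mouse 2, the lowest wild-type mouse in both genes, both passed the test as lower in R6/1 good mice, at -0.27 for each (adjusted p = 0.0389 for Pdgfra and 0.0359 for Cspg4).

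The transcription factors that define the lineage did not pass the test between the genotypes. Olig1 and Olig2 are basic helix-loop-helix factors needed to specify oligodendrocytes, and Sox10 is needed for their maturation. Olig1 read 112, 73.05, 124 and 79.6 CPM in wt good, 97.9, 80.2, 99.2 and 95.6 in wt poor, 60.7, 71.1, 107 and 87.9 in R6/1 good and 103, 108, 95.9 and 116 in R6/1 poor mice. Olig2 read 32.5, 17.1, 34.6 and 27.3 CPM in wt good, 27.2, 22.3, 25.4 and 25.2 in wt poor, 18.3, 20.5, 25.5 and 19.98 in R6/1 good and 29.6, 26.6, 26.6 and 25.7 in R6/1 poor mice. The lowest Olig1 value was that of R6/1 good mouse 1, and the genotypes overlapped in both genes, while in Olig2 all R6/1 good mice were below all R6/1 poor mice. As for Pdgfra, the share of all genes that separate the good from the poor R6/1 mice was not counted. Olig2, at -0.33 in R6/1 good mice (SE 0.16, adjusted p = 0.14), passed the test when wt good mouse 2 was left out (-0.40, adjusted p = 0.0276) and in libraries 1 to 8 alone (-0.48, adjusted p = 0.0262). Sox10 read 72.5, 49.96, 58.2 and 52.8 CPM in wt good, 62.3, 49.2, 66.4 and 61.7 in wt poor, 37.5, 50.9, 65.7 and 62.7 in R6/1 good and 48.4, 60.97, 42.4 and 43.5 in R6/1 poor mice. R6/1 good mouse 1 was again lowest, and R6/1 poor mice 1, 3 and 4 were below all 8 wild-type mice. Its log2 fold change was -0.28 in R6/1 poor mice (SE 0.12, adjusted p = 0.0921), and the test was passed without R6/1 poor mouse 2 (-0.40, adjusted p = 0.0195) and in libraries 9 to 16 alone (-0.35, adjusted p = 0.0477).

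Of the 5 genes listed for the committed stage, 1 rose, 1 fell and 3 did not pass the test over all R6/1 mice. Over all genes tested, 17.2% were higher and 17.0% lower. As RNA came from whole striatum, these changes are not placed in committed cells. Enpp6 (chr8:46986887-47096762), a choline-specific phosphodiesterase of newly forming oligodendrocytes, read 21.03, 18.4, 26.2 and 19.95 CPM in wt good mice and 21.1, 19.2, 29.5 and 22.00 CPM in wt poor mice. The R6/1 good mice had 26.1, 32.7, 40.9 and 34.5 CPM and the R6/1 poor mice 30.7, 35.3, 25.5 and 27.1 CPM. Of the 8 wild-type mice, wt good mouse 3 and wt poor mouse 3 reached the range of the R6/1 mice, and the other 6 were below every R6/1 mouse. Enpp6 rose 1.42-fold over all R6/1 mice (log2 fold change 0.51, SE 0.11, adjusted p = 0.00157), with 0.59 in R6/1 good mice (adjusted p = 0.00424) and 0.42 in R6/1 poor mice (adjusted p = 0.0199). In R6/1 poor mice the call was lost without R6/1 poor mouse 1 (adjusted p = 0.0607) or mouse 2 (adjusted p = 0.0813). Within libraries 1 to 8, 5 R6/1 against 3 wild-type mice, the log2 fold change was 0.70 (adjusted p = 0.00361), and within libraries 9 to 16, 3 R6/1 poor against 5 wild-type mice, it was 0.27 (adjusted p = 0.255).

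Tspan2 (chr3:102734529-102801513), a tetraspanin of the membrane of myelinating cells, read 256, 229.7, 273 and 174 CPM in wt good and 208, 218, 288 and 231 CPM in wt poor mice. The R6/1 good mice were at 123, 138, 172 and 169.7 CPM and the R6/1 poor mice at 162, 154, 144 and 190.4 CPM. Apart from wt good mouse 4, every wild-type mouse was above every R6/1 mouse. Tspan2 fell in both R6/1 groups (log2 fold change -0.59, SE 0.10, adjusted p = 0.000201 over all R6/1 mice), and within libraries 1 to 8 and libraries 9 to 16 the log2 fold changes were -0.50 and -0.59, both called. Its exons share 88 bases with Tspan2os on the opposite strand, and the strand setting of the counts is not given in the sources used here.

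The remaining committed genes kept to the wild-type range or near it. Bcas1, a protein of early myelin sheaths, had 442, 361, 335 and 231 CPM in wt good and 289, 268, 338 and 271 CPM in wt poor mice. Its R6/1 values were 217, 282, 371 and 370.2 CPM in good and 287, 264, 263 and 288 CPM in poor mice. The span among mice of 1 genotype exceeded the difference of the means, with a log2 fold change of -0.11 over all R6/1 mice (95% interval -0.36 to 0.14, adjusted p = 0.523). Myrf, the membrane-bound factor that switches on myelin genes, read 126, 78.9, 88.3 and 81.2 CPM in wt good, 88.01, 82.03, 108 and 85.4 in wt poor, 58.3, 76.97, 99.8 and 94.3 in R6/1 good and 82.3, 90.6, 70.5 and 81.8 in R6/1 poor mice. Wt good mouse 1 was highest and R6/1 good mouse 1 lowest, and the difference did not pass the test (log2 fold change -0.17, SE 0.11, adjusted p = 0.248). Gpr17, a receptor found on committed precursors, ranged over 52.4 to 81.2 CPM in wild-type and 58.8 to 69.8 CPM in R6/1 mice (log2 fold change -0.11, adjusted p = 0.226), and it was called lower without wt poor mouse 1 (-0.17, adjusted p = 0.0271). Exons of Pdgfra, Olig1, Gpr17, Bcas1, Nkx6-2, Ermn and Enpp2 also overlap a gene on the opposite strand, by 157 to 622 bases.

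**Figure D3:**
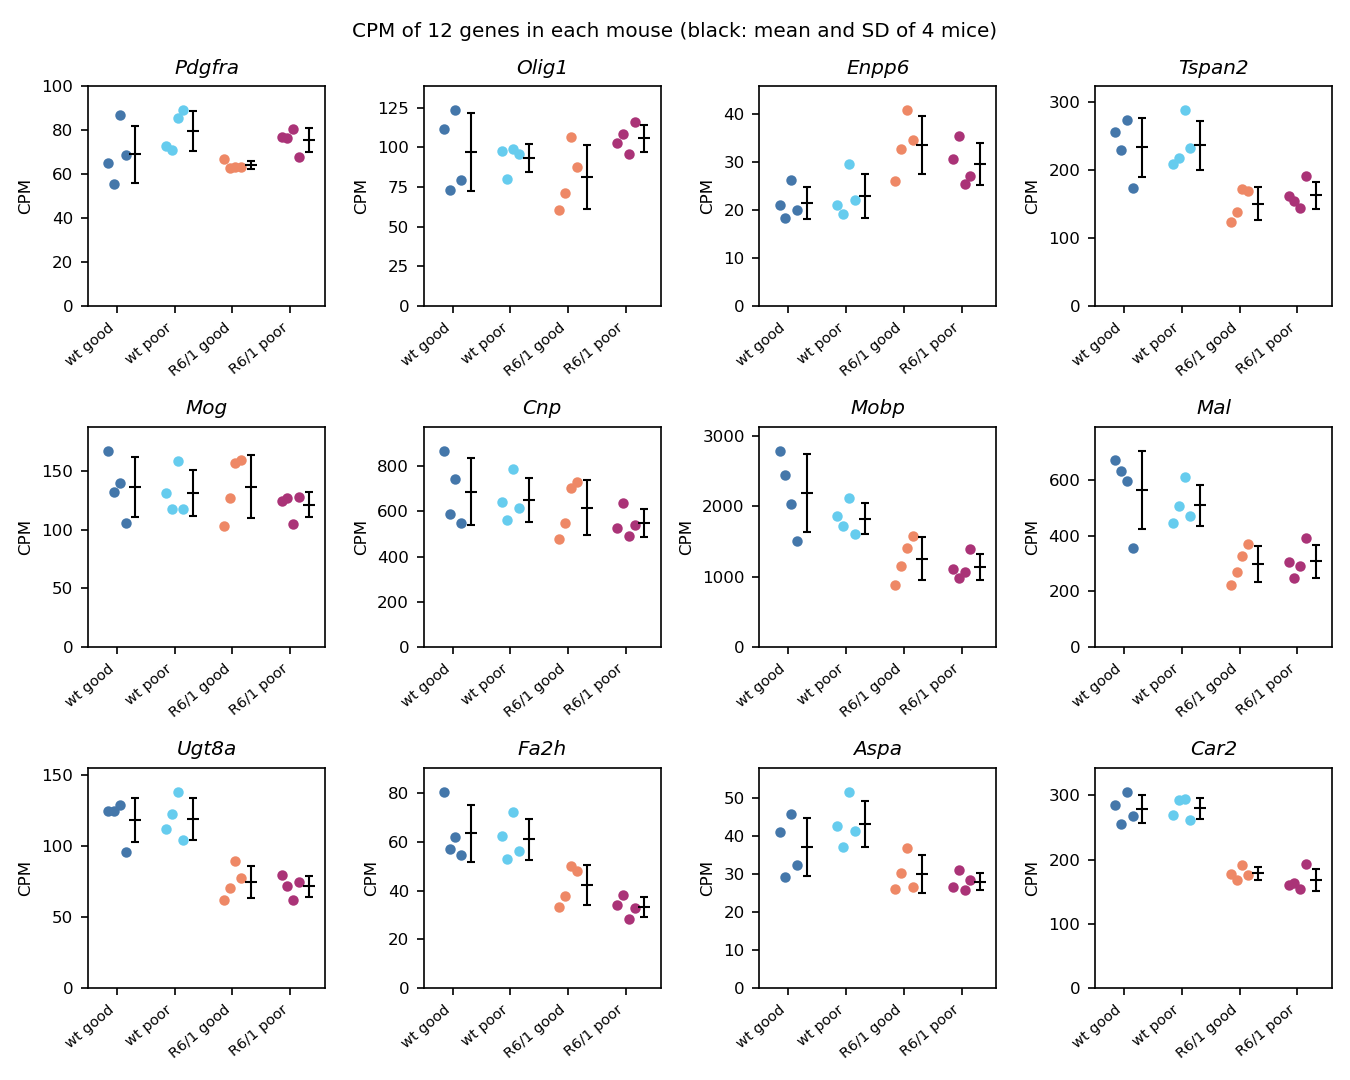
CPM of 12 genes in each of the 16 mice (points, in the order of mouse 1 to 4) with mean and SD of each group (black), from precursor genes to mature genes. Enpp6 is higher and Tspan2, Mobp, Mal, Ugt8a, Fa2h, Aspa and Car2 are lower in both R6/1 groups, while the points of Pdgfra, Olig1, Mog and Cnp overlap between the genotypes.

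Among the 8 proteins of the myelin sheath, Mbp, Mobp, Cldn11 and Mal fell and Mog, Mag, Cnp and Opalin did not pass the test. Over all genes tested, 17.0% were lower over all R6/1 mice, and 8 genes are few for such a count. Mbp read 6799, 5026, 5871 and 4684 CPM in wt good and 5702, 4670.1, 6110.3 and 4639.6 CPM in wt poor mice. Its R6/1 values were 3361, 4145, 5457 and 5048 CPM in good and 3858, 4145, 3478 and 4582 CPM in poor mice. The R6/1 poor mice were all below the 8 wild-type mice, and R6/1 good mice 3 and 4 were within the wild-type range. Mbp fell over all R6/1 mice (log2 fold change -0.35, SE 0.11, adjusted p = 0.0147) and in R6/1 poor mice (-0.44, adjusted p = 0.00954), while R6/1 good mice gave -0.27 (adjusted p = 0.151). The difference between both R6/1 groups was itself -0.15 (SE 0.15, adjusted p = 0.645). In libraries 1 to 8 alone, Mbp over all R6/1 mice was at -0.38 (adjusted p = 0.134).

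Mobp (chr9:120149707-120181484), whose promoter is printed above, read 2787, 2446, 2034 and 1502 CPM in wt good and 1859, 1712, 2118 and 1599 CPM in wt poor mice. In R6/1 mice it read 877, 1150.5, 1410.4 and 1571 CPM in good and 1111, 978, 1067 and 1399 CPM in poor mice. All R6/1 mice were below the wild-type mice except R6/1 good mouse 4, which passed wt good mouse 4 alone. Over all R6/1 mice, Mobp was at 0.596 times its wild-type level (log2 fold change -0.75, SE 0.14, adjusted p = 0.000472). Its call in R6/1 good mice (-0.68, adjusted p = 0.0167) was lost without R6/1 good mouse 1 (adjusted p = 0.051) or mouse 2 (adjusted p = 0.0523). The genotype difference was -0.79 in libraries 1 to 8 (adjusted p = 0.0526) and -0.73 in libraries 9 to 16 (adjusted p = 0.00953).

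Mal (chr2:127633226-127656695), a proteolipid that sorts proteins into the myelin membrane, read 671, 633, 597 and 358 CPM in wt good and 447, 506, 610.3 and 471 CPM in wt poor mice. The R6/1 good mice had 223, 269, 329 and 371 CPM and the R6/1 poor mice 304, 248, 291 and 391 CPM. Of the wild-type mice, wt good mouse 4 lay within the R6/1 range and the other 7 above it. Mal fell over all R6/1 mice (log2 fold change -0.82, SE 0.13, adjusted p = 0.000155), the furthest of the 35 genes in that comparison, and the genotype difference was called within libraries 1 to 8 (-0.78) and within libraries 9 to 16 (-0.78).

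Cldn11 (chr3:31149920-31164324) encodes the claudin of the tight junctions between myelin layers, and it read 238, 229, 260.0 and 172 CPM in wt good and 199, 211, 283 and 224 CPM in wt poor mice. It was at 100.3, 124, 169 and 160.4 CPM in R6/1 good and 145, 129, 131 and 191 CPM in R6/1 poor mice. Wt good mouse 4 was again the one wild-type mouse within the R6/1 range, below R6/1 poor mouse 4. Cldn11 fell in both groups (log2 fold change -0.66, SE 0.12, adjusted p = 0.000368 over all R6/1 mice), and the genotype difference was called within libraries 1 to 8 (-0.58) and within libraries 9 to 16 (-0.63).

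Of the sheath genes that did not pass the test, Cnp, a phosphodiesterase of the channels that stay open within myelin, had the highest level. It read 868, 590.2, 741 and 546 CPM in wt good, 641, 561, 785 and 614 in wt poor, 479.9, 547, 704 and 731 in R6/1 good and 527, 635, 492 and 540.0 in R6/1 poor mice. R6/1 mice lay within or a little under the wild-type range, with a log2 fold change of -0.20 (95% interval -0.42 to 0.015, adjusted p = 0.174). Cnp shares 154 bases of exon with Dnajc7 on the opposite strand. Mog, a glycoprotein of the outermost myelin layer, ranged over 106 to 167 CPM in wild-type and 104 to 159 CPM in R6/1 mice, and its log2 fold change was -0.055 (95% interval -0.26 to 0.15). Mag, the adhesion protein facing the axon, ranged over 264 to 426 against 237 to 403 CPM (-0.14, 95% interval -0.39 to 0.11). Opalin, a membrane glycoprotein of central myelin, ranged over 38.4 to 83.7 against 31.8 to 64.8 CPM (-0.24, adjusted p = 0.34). In R6/1 poor mice, Opalin was at -0.51 (adjusted p = 0.11), which DESeq2 called (adjusted p = 0.0494) and edgeR called without R6/1 poor mouse 2 (adjusted p = 0.0497).

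Of the 4 enzymes of myelin lipids, 3 fell over all R6/1 mice, where 17.0% of all genes tested were lower. With 4 genes, this count is not read as particular to their role. Ugt8a (chr3:125865271-125938619) encodes the transferase that adds galactose to ceramide to make galactosylceramide, the main glycolipid of myelin. It read 124, 125, 129 and 95.7 CPM in wt good and 112, 122, 138 and 104 CPM in wt poor mice. It read 62.2, 70.4, 89.3 and 77.4 CPM in R6/1 good and 79.3, 71.6, 61.8 and 74.7 CPM in R6/1 poor mice. All 8 R6/1 mice were below all 8 wild-type mice, at 0.617 times the wild-type level (log2 fold change -0.70, SE 0.081, adjusted p = 4.8e-06), and the difference was called within libraries 1 to 8 (-0.59) and within libraries 9 to 16 (-0.78).

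Fa2h (chr8:111345135-111393824) adds the hydroxyl group found on many fatty acids of these galactolipids. Its values were 80.7, 57.2, 61.9 and 54.6 CPM in wt good and 62.5, 53.1, 72.5 and 56.4 CPM in wt poor mice. They were 33.2, 37.9, 50.1 and 48.1 CPM in R6/1 good and 34.02, 38.2, 28.3 and 32.9 CPM in R6/1 poor mice. The genotypes did not overlap in Fa2h either, which fell by 0.72 on the log2 scale (SE 0.12, adjusted p = 0.000118), -0.56 in R6/1 good and -0.90 in R6/1 poor mice. The difference between the poor and the good R6/1 mice was -0.33 (SE 0.14), with an unadjusted p of 0.0425 and an adjusted p of 0.31.

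Aspa (chr11:73304992-73329596) splits N-acetylaspartate, which neurons make, into acetate and aspartate, and the acetate serves lipid synthesis. It read 41.1, 29.3, 45.7 and 32.3 CPM in wt good and 42.5, 37.03, 51.6 and 41.3 CPM in wt poor mice. It read 26.1, 30.3, 36.9 and 26.6 CPM in R6/1 good and 26.7, 30.9, 25.7 and 28.5 CPM in R6/1 poor mice. Wt good mice 2 and 4 lay within the R6/1 range, and the other 6 wild-type mice lay above it, the lowest of them close to R6/1 good mouse 3. Aspa fell over all R6/1 mice (log2 fold change -0.47, SE 0.10, adjusted p = 0.00179) and in R6/1 poor mice (-0.52, adjusted p = 0.00745). In R6/1 good mice (-0.42, adjusted p = 0.0399) the call was lost when any one of R6/1 good mice 1, 2 and 4, wt good mice 1 and 3 or wt poor mice 1, 3 and 4 was left out, with adjusted p-values of 0.0569 to 0.124. Gal3st1, the sulfotransferase that turns galactosylceramide into sulfatide, ranged over 12.8 to 16.6 CPM in wild-type and 10.5 to 17.8 CPM in R6/1 mice and did not pass the test (-0.11, 95% interval -0.31 to 0.08).

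Ugt8a, Fa2h and Car2 were the genes of the 35 in which the 8 R6/1 and the 8 wild-type mice did not overlap, 3 below and 0 above. Over all 19363 genes tested, 9.07% did not overlap, 5.03% with R6/1 below and 4.05% with R6/1 above. Car2 (chr3:14886273-14900770), carbonic anhydrase 2, an enzyme of oligodendrocytes that interconverts carbon dioxide and bicarbonate, read 285, 255, 306 and 267 CPM in wt good and 269, 293, 294 and 262 CPM in wt poor mice. It read 178, 169, 192 and 175 CPM in R6/1 good and 161, 164, 154 and 192 CPM in R6/1 poor mice. The spread within each genotype was narrow, and Car2 had the smallest adjusted p of the 35 genes (log2 fold change -0.69, SE 0.055, adjusted p = 9.39e-08), with -0.65 within libraries 1 to 8 and -0.74 within libraries 9 to 16, both called.

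Gap junctions couple oligodendrocytes to each other and to astrocytes. Gjc3 (chr5:137953461-137963098), a connexin of myelinating cells, read 129.8, 102, 119 and 85.5 CPM in wt good and 100.4, 109, 132 and 106 CPM in wt poor mice. In R6/1 mice it was at 63.1, 75.4, 93.3 and 87.5 CPM in good and 84.3, 73.6, 77.02 and 94.1 CPM in poor mice. Wt good mouse 4 lay within the R6/1 range and the other wild-type mice above it. Gjc3 fell over all R6/1 mice (log2 fold change -0.45, SE 0.092, adjusted p = 0.00105), at -0.43 within libraries 1 to 8 (adjusted p = 0.0787) and -0.42 within libraries 9 to 16 (adjusted p = 0.0174). Gjb1, the connexin 32 gene on the X chromosome, ranged over 19.1 to 36.5 CPM in wild-type and 20.4 to 36.2 CPM in R6/1 mice (0.048, adjusted p = 0.821).

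Qdpr (chr5:45434021-45450236), dihydropteridine reductase, which recycles tetrahydrobiopterin, read 227, 173, 223 and 179 CPM in wt good and 211, 182, 213 and 186 CPM in wt poor mice. It read 158, 164, 197 and 179.8 CPM in R6/1 good and 149, 166, 130.2 and 171 CPM in R6/1 poor mice. R6/1 poor mice were all below the wild-type mice, and R6/1 good mice 3 and 4 were not. Qdpr fell over all R6/1 mice (log2 fold change -0.28, SE 0.078, adjusted p = 0.00967) and in R6/1 poor mice (-0.37, adjusted p = 0.00786). In libraries 1 to 8 alone the genotype difference was -0.26 (adjusted p = 0.0702). Its exons share 332 bases with a gene on the opposite strand.

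Trf, the transferrin gene, read 17.5, 14.2, 13.2 and 10.9 CPM in wt good and 13.4, 9.76, 16.5 and 13.2 CPM in wt poor mice. In R6/1 good mice it read 10.7, 14.1, 16.3 and 14.99 CPM and in R6/1 poor mice 11.2, 11.4, 9.12 and 8.80 CPM. R6/1 good mice lay inside the wild-type range and R6/1 poor mice 3 and 4 below it. Trf was called lower in R6/1 poor mice (log2 fold change -0.42, SE 0.15, adjusted p = 0.04) and not over all R6/1 mice (-0.18, adjusted p = 0.351). That call was held in 3 of the 12 fits that left out 1 mouse, and it was lost without R6/1 poor mouse 1, 3 or 4, wt good mouse 1, 2 or 3, or wt poor mouse 1, 3 or 4, with adjusted p-values of 0.0516 to 0.126. Of its 3320 bases of exon, 2108 are shared with the read-through gene Gm20425 on the same strand, and the counting could split reads between these genes, so its level is uncertain.

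The other mature genes did not pass the test between the genotypes. Plekhb1, a gene of high level in these cells, ranged over 536 to 689 CPM in wild-type and 486 to 730.5 CPM in R6/1 mice (-0.093, 95% interval -0.24 to 0.059). Enpp2, autotaxin, which makes lysophosphatidic acid, ranged over 271 to 390.4 against 248 to 391 CPM (-0.083), and Lpar1, a receptor for that lipid, over 53.9 to 86.6 against 52.1 to 81.7 CPM (-0.17). Lpar1 was called lower in R6/1 poor mice in libraries 9 to 16 alone (-0.33, adjusted p = 0.0442) and without wt good mouse 4 (-0.32, adjusted p = 0.0182), and in the main comparison it was at -0.27 (adjusted p = 0.0718). Ermn, a cytoskeletal protein of myelin, stood at -0.19 (adjusted p = 0.174) and Hapln2, a link protein of the matrix at nodes of Ranvier, at -0.11 (adjusted p = 0.493). Nkx6-2, a homeobox factor of the lineage, Ninj2, an adhesion protein, and Ppp1r14a were at low levels, with 5.62 to 12.7 CPM for Nkx6-2, 1.75 to 4.25 CPM for Ninj2 and 9.45 to 17.8 CPM for Ppp1r14a in wild-type mice. Their log2 fold changes over all R6/1 mice were -0.11 (SE 0.22), 0.21 (SE 0.21) and 0.04 (SE 0.16).

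The comparison of poor with good performers asks whether these genes moved with the behavioural score. Between the poor and the good R6/1 mice, edgeR called 0 of the 35 genes and 0 of all 19363 (0% called). At an unadjusted p under 0.05 there were 3 genes higher in R6/1 poor mice, Pdgfra, Olig1 and Olig2, and 4 lower, Opalin, Fa2h, Trf and Ppp1r14a. The share of all genes at that unadjusted threshold was not counted, so this split is not read as particular to these genes. Pdgfra differed by 0.25 (SE 0.065, adjusted p = 0.248), Olig2 by 0.38 (SE 0.11, adjusted p = 0.248) and Olig1 by 0.39 (SE 0.16, adjusted p = 0.299). The interval of the difference was -0.74 to -0.16 for Trf, -0.84 to -0.11 for Opalin and -0.70 to -0.12 for Ppp1r14a, a regulator of myosin phosphatase. All 4 R6/1 good mice and 1 R6/1 poor mouse are in libraries 1 to 8, so performance and library set cannot be fully told apart here. Under the 8 alternatives that left out no single mouse, the difference was -0.49 to -0.036 for Opalin and -0.43 to -0.069 for Ppp1r14a. It was -0.34 to -0.14 for Fa2h and -0.46 to -0.28 for Trf. Pdgfra gave 0.24 to 0.27, Olig2 0.35 to 0.39 and Olig1 0.37 to 0.42. DESeq2 called 1 of the 35, Pdgfra (adjusted p = 0.0435), and 1.84% of all genes. Of the 8 mature genes that fell in both R6/1 groups, Fa2h had an interval of the difference between poor and good mice below 0 (-0.61 to -0.053, adjusted p = 0.31), and the other 7 intervals spanned 0. They were -0.27 to 0.18 for Ugt8a, -0.23 to 0.084 for Car2, -0.29 to 0.42 for Mal, -0.48 to 0.23 for Mobp, -0.24 to 0.49 for Cldn11, -0.19 to 0.31 for Gjc3 and -0.31 to 0.14 for Aspa.

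Between wt poor and wt good mice, edgeR and DESeq2 each called 0 of the 35 genes and 0 of all genes (0% called), and 0 of the 35 had an unadjusted p under 0.05. The log2 differences ran from -0.26 for Mobp to 0.41 for Ninj2, with a median of -0.04. The interaction of genotype and performance, the test of whether the poor-minus-good difference was unlike in R6/1 and wild-type mice, gave 0 calls among the 35 genes with both tools (0% of all genes with edgeR and 0.00516% with DESeq2). Olig2 (0.52, SE 0.23) and Ninj2 (-0.94, SE 0.37) had an unadjusted p under 0.05, with adjusted p = 0.826 for Olig2 and 0.826 for Ninj2. For these comparisons too, the share of all genes at the unadjusted threshold was not counted.

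Mice of 1 group differed together across the mature genes. Among wild-type mice, wt good mouse 1 was highest in 15 of the 25 mature genes, wt good mouse 4 lowest in 11 and wt good mouse 2 lowest in 8. Among R6/1 mice, R6/1 good mouse 3 was highest in 17, R6/1 good mouse 1 lowest in 13 and R6/1 poor mouse 3 lowest in 11. As the mean difference in log2 CPM from the wild-type mice over the 25 mature genes, mice ran from -0.27 to 0.29 in wt good, -0.18 to 0.22 in wt poor, -0.56 to 0.078 in R6/1 good and -0.53 to -0.26 in R6/1 poor. R6/1 good had the widest range of these, and R6/1 poor the narrowest, and all 4 R6/1 poor mice were below 0.

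**Figure D4:**
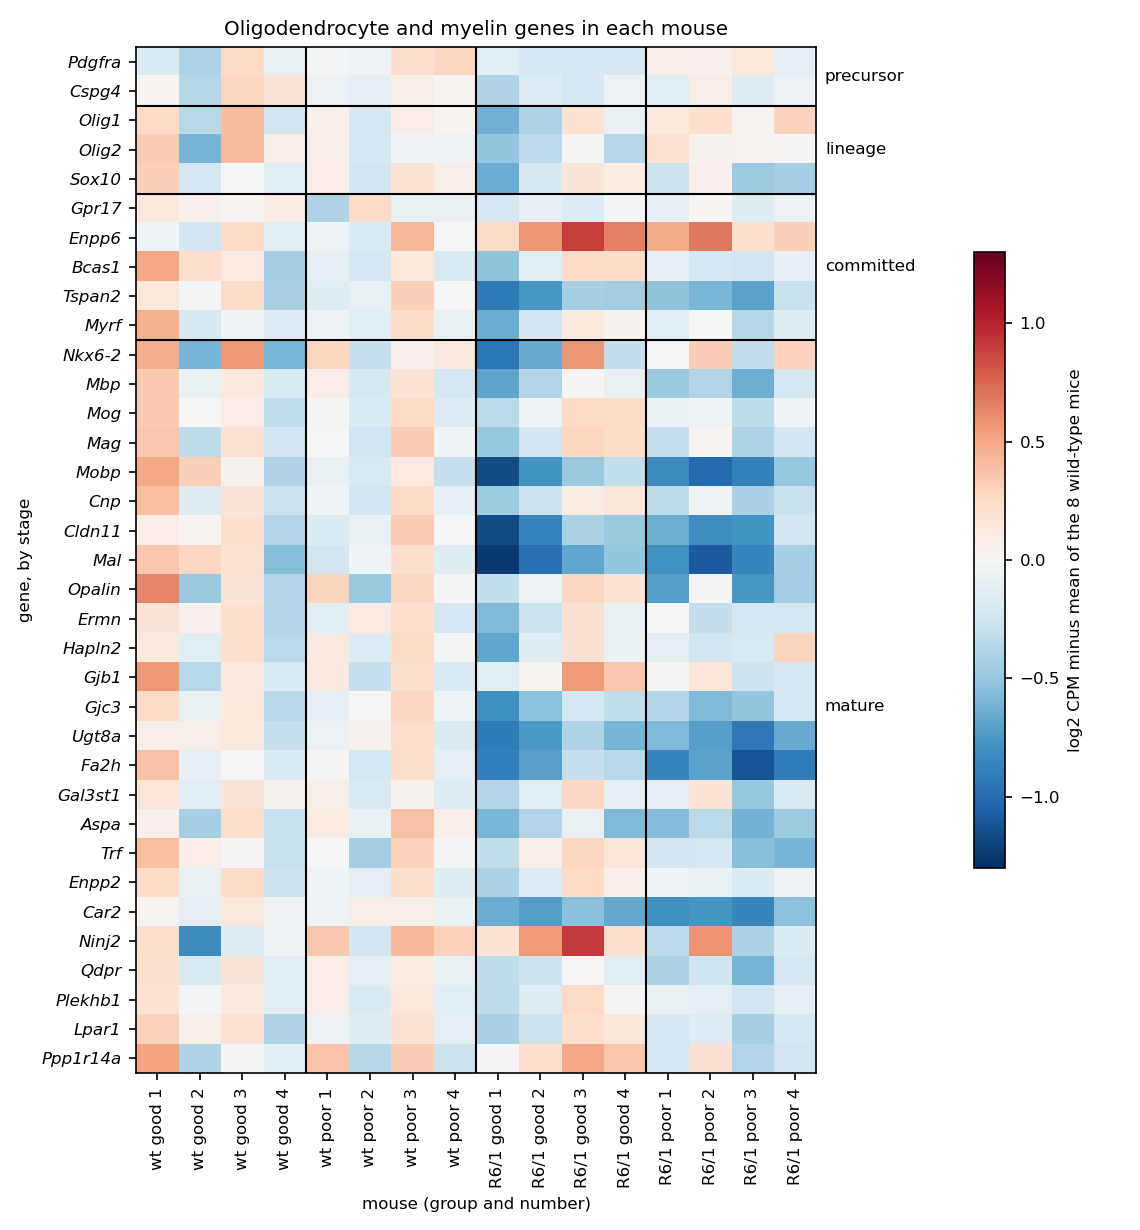
Log2 CPM of each gene (rows, by stage) in each mouse (columns, by group) minus the mean of the 8 wild-type mice, red above and blue below. Rows such as Mobp, Mal, Cldn11, Ugt8a, Fa2h and Car2 are blue across the R6/1 mice and Enpp6 is red, while whole columns shift together, with wt good mouse 1 mostly red and R6/1 good mouse 1 mostly blue.

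Since whole columns shifted together, each level was also divided by that of Mog in the same mouse. Mog was chosen after its values had been seen, as a sheath gene with a log2 fold change near 0, so these ratios are a description with no test. The ratio of Ugt8a to Mog was 0.743 to 1.04 in the 8 wild-type and 0.487 to 0.636 in the 8 R6/1 mice. Fa2h gave 0.432 to 0.515 against 0.258 to 0.321, Mobp 13.3 to 18.5 against 7.68 to 10.97 and Mal 3.38 to 4.78 against 1.95 to 3.06. Enpp6 gave 0.126 to 0.188 in wild-type and 0.213 to 0.278 in R6/1 mice. These 5 ratios did not overlap between the genotypes. The ratios of Cldn11 (1.42 to 1.90 against 0.968 to 1.49), Mag (1.99 to 2.75 against 2.16 to 2.67) and Cnp (4.45 to 5.29 against 4.22 to 4.99) did. All 5 genes whose ratios did not overlap were already called over all R6/1 mice. The share of all genes whose ratio to Mog did not overlap was not counted.

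**Figure D5:**
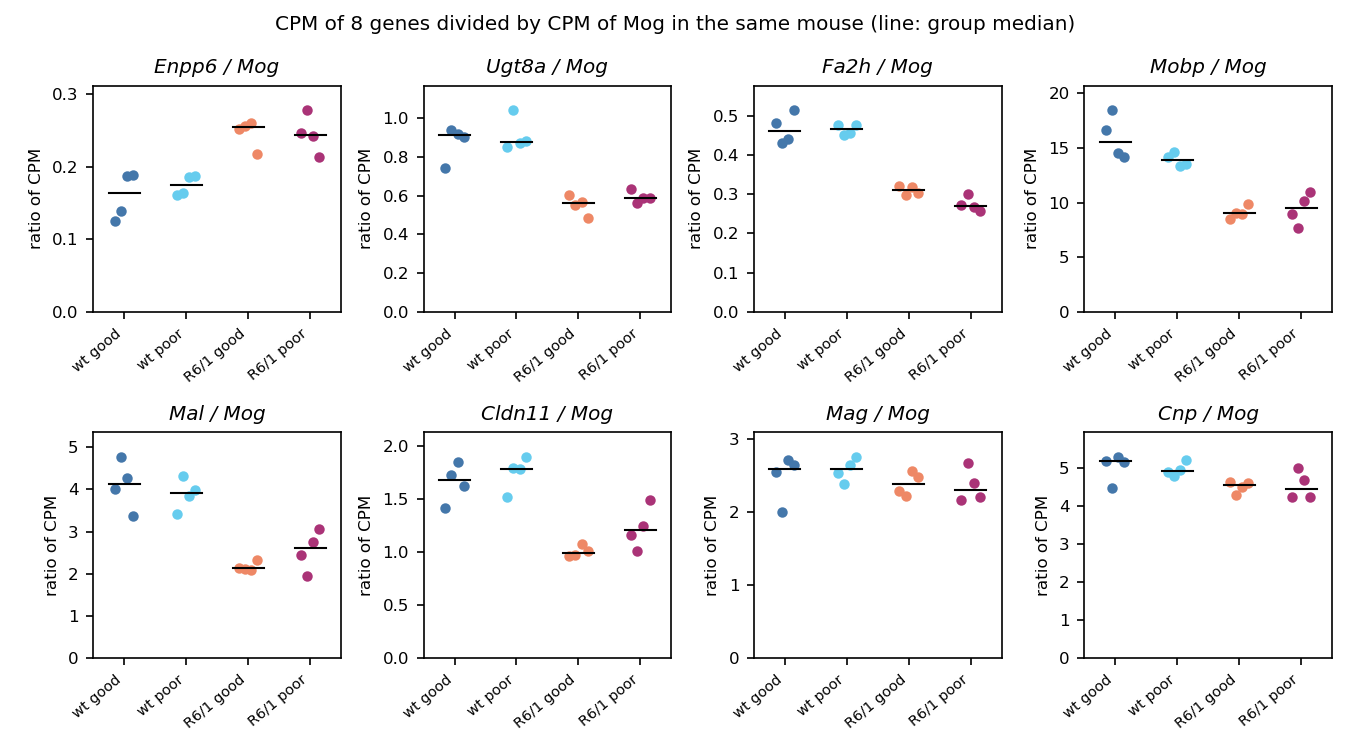
CPM of 8 genes divided by the CPM of Mog in the same mouse, with 1 point per mouse and a line at the median of each group. The ratio of Enpp6 is higher and those of Ugt8a, Fa2h, Mobp and Mal are lower in every R6/1 mouse than in every wild-type mouse, and those of Cldn11, Mag and Cnp overlap.

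Further genes of the same lineage were counted from 3 lists, beside shares called of all genes of 34.2% over all R6/1 mice, 24.6% in the good and 28.5% in the poor group. Of 10 other precursor genes, 2 rose and 1 fell over all R6/1 mice, namely Pcdh15, a protocadherin (log2 fold change 0.40, adjusted p = 0.0283), Tnr, tenascin-R (log2 fold change 0.17, adjusted p = 0.0316), and Vcan, the proteoglycan versican (log2 fold change -0.21, adjusted p = 0.0172). In R6/1 good mice 0 rose and 2 fell, and in R6/1 poor mice 4 rose and 0 fell, while the direct comparison of the poor with the good R6/1 mice and the interaction each called 0 of the 10 by edgeR. Of 10 other committed genes, 0 rose and 3 fell, Zfp488 (log2 fold change -0.26, adjusted p = 0.000874), Zfp536 (log2 fold change -0.26, adjusted p = 0.025) and Itpr2 (log2 fold change -0.16, adjusted p = 0.0483), with 0 and 1 in each R6/1 group on its own. Of 38 other mature and myelin genes, 2 rose and 13 fell over all R6/1 mice, 1 and 9 in R6/1 good and 1 and 14 in R6/1 poor mice. The median log2 fold change over these 38 was -0.14, against 0.02 over all genes tested. It was 0.037 over the 10 other precursor genes and 0.038 over the 10 other committed genes. Among those of smallest p were Prima1, an anchor of acetylcholinesterase (log2 fold change -1.39, adjusted p = 8.43e-06), Pmp22, a peripheral myelin protein (log2 fold change -0.60, adjusted p = 1.48e-05), and Il33, a cytokine found in oligodendrocytes and astrocytes (log2 fold change -0.53, adjusted p = 0.000284).

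Markers of other cells that the dissection could hold were measured beside these genes. Of all genes tested, 17.2% were higher and 17.0% lower over all R6/1 mice. Of 12 astrocyte markers, 0 were higher and 9 lower in R6/1 mice, with a summed level of 5505 to 6318 CPM in wild-type and 3402 to 4185 CPM in R6/1 mice. Of 10 microglia markers 9 were lower (733 to 933 against 535 to 707 CPM) and of 9 endothelial markers 7 were lower (456 to 535 against 351 to 423 CPM). Pericyte markers were lower in 2 of 10 (345 to 396 against 251 to 358 CPM) and those of vascular and leptomeningeal fibroblasts in 2 of 11 (33.4 to 47.1 against 26.8 to 44.0 CPM). Markers of cortical neurons, which lie next to the striatum across the white matter, were lower in 2 of 12, and their sum ran from 207 to 997 CPM in wild-type and 207 to 1012 CPM in R6/1 mice. Markers of Schwann cells, the myelinating cells of peripheral nerves, summed to 2.91 to 5.24 CPM in wild-type and 2.16 to 3.65 CPM in R6/1 mice, with 1 of 3 tested lower. Choroid plexus markers had 1 of 9 tested higher (21.3 to 63.8 against 23.9 to 74.7 CPM), ependymal cells 1 of 9 higher (36.5 to 81.9 against 48.1 to 95.5 CPM) and septal and hypothalamic neurons 1 of 9 higher (35.1 to 99.4 against 28.0 to 339 CPM). In the R6/1 poor group alone, septal and hypothalamic markers were higher in 3 of 9 tested (median log2 fold change 1.72), choroid plexus markers higher in 2 of 9 and pericyte markers lower in 5 of 10, against 0 in each of these lists in the R6/1 good group. Of all genes tested in that poor group, 13.5% were higher and 14.9% lower. Between the poor and the good R6/1 mice, edgeR called 0 of the markers in these lists and 0 of all 19363 genes. The interaction likewise called 0 of them. No marker in these lists was at 0 in all libraries. The part that astrocytes, neurons and the other cell types have in the oligodendrocyte results was not tested.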

How the data were processed

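Striatal RNA of 16 mice, 4 per group, was sequenced from stranded mRNA libraries, 1 per mouse, by the authors. The deposited table holds raw read counts per Ensembl gene on GRCm38. The submitters' processing notes name TopHat 1.0.1, Bowtie and CASAVA. No source used here gives the read counter, the release of its annotation or whether it used strand. All 55450 identifiers matched GENCODE release M21, and 13 mitochondrial mRNAs are listed at 0. Groups were taken from the sample labels. Total counts were 16155356 to 24897354 per library, and no pair of libraries looked like repeats of one library (highest correlation of log2 CPM 0.992).

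Genes that reached 10 counts in 4 or more libraries were tested with edgeR 4.0.16 (TMM, robust quasi-likelihood test, Benjamini-Hochberg adjustment over all 19363 genes, threshold 0.05) in R 4.3.3. Fold changes are edgeR log2 fold changes, and their SE was derived from the fold change and the F statistic of the test. Intervals, called 95%, reach 1.96 SE to each side and are narrower than the test itself would give. Mbp in R6/1 good mice, for example, had -0.53 to -0.011 at an unadjusted p of 0.0594 (edgeR). An interval that leaves out 0 is therefore not read as a passed test. CPM per kb divides CPM by the union of the exons. Each comparison was fitted on the mice that it compares, with all 8 wild-type mice as controls of each R6/1 group. P-values measure the spread between mice, whose litters were not used here.

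The 35 genes, the lists of other oligodendrocyte genes and the marker lists were chosen with earlier results of these data known. All 35 are named. Values of every mouse are given for genes called in any comparison and for up to 3 genes of highest mean log2 CPM per stage, and genes of the other lists are named where they are among the 4 smallest p-values of their list, apart from 1 that is not reported here. Motifs were searched in RefSeq promoters (GRCm38.p6).

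Alternatives were DESeq2 1.42.0, RLE size factors, other count filters, 1 fit of all groups, the replicate number as a block, the library set as a covariate or alone, controls of the same performance and each mouse left out. Mice of the same number were not paired: over 24 pairs, correlations of their deviations from the group means were -0.35 to 0.23. The edgeR fit was also run on simulated counts with known fold changes, and the outcome is not reported here.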

Additional observations from a re-analysis of the deposited data

Results flagged for a closer look

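In 3 of 140 sets of 4 mice tested (35 genes in 4 groups), the highest or lowest mouse stood further from the others than Dixon's critical value at the 95% level allows, and chance alone gives about 7. Ugt8a in wt good mouse 4 was at 95.7 CPM, with the other wt good mice at 124 to 129 CPM, and it was still above all 8 R6/1 mice. Pdgfra in R6/1 good mouse 1 was at 67.0 CPM, with the other R6/1 good mice at 62.9 to 63.3 CPM. Mog in R6/1 poor mouse 3 was at 105 CPM, with the other R6/1 poor mice at 125 to 128 CPM.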

How the results depend on the processing

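Of 4340 log2 fold changes of the 35 genes under an alternative, 4270 kept their side of the threshold, 55 lost the call and 15 gained it. The sign changed in 281, of genes not called under either setting, and in 0 called ones. In libraries 1 to 8 alone, 5 genes were called in R6/1 good, 2 in R6/1 poor (1 mouse, assumed to vary like the others) and 7 over all R6/1 mice, against 10, 13 and 12 in all libraries, and these fits hold fewer mice. DESeq2 called 1 gene between the poor and the good R6/1 mice, against 0. Under the other alternatives that left out no single mouse, calls were 7 to 10 in R6/1 good and 11 to 14 in R6/1 poor mice, 12 to 13 over all R6/1 mice, and 0 for the other comparisons. Controls of the same performance left 11 calls in R6/1 poor mice, without Enpp6 and Trf. Apart from DESeq2, shares of all genes called in the alternative fits, here and below, are not given. The counts of calls in those fits are therefore not read as particular to the 35 genes.

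With each mouse left out in turn, calls were 8 to 13 in R6/1 good, 11 to 14 in R6/1 poor and 12 to 13 over all R6/1 mice, and 0 for poor against good of either genotype and for the interaction. The shares of all genes called in these fits are likewise not given. Median log2 fold changes were -0.23 to -0.06 in R6/1 good, -0.32 to -0.17 in R6/1 poor and -0.23 to -0.12 over all R6/1 mice, -0.15 to 0.03 between poor and good R6/1, -0.12 to 0.05 between wt poor and good, and -0.11 to 0.04 for the interaction. All 12 genes called over all R6/1 mice stayed called in each of 16 such fits.

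The replicate number as a block changed no call among the 35 genes, with 10, 13 and 12 called in R6/1 good, R6/1 poor and all R6/1 mice and medians of -0.17, -0.18 and -0.17. Over all genes, this block raised the calls between poor and good R6/1 mice from 0 to 96. The numbers do not pair the mice, and 2 of 16 mice correlated best with a mouse of their own number. Libraries 9 to 16 alone were not run for comparisons that need R6/1 good mice, which are all in libraries 1 to 8, and controls of the same performance do not apply between wild-type groups. Ninj2 and Nkx6-2, at low counts, had the largest standard errors of the 35 genes over all R6/1 mice.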
